A study of Mus musculus with 6 samples.

Results

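The genes described here encode the membrane machinery of the lysosome: the proton pump known as the V-ATPase, the Ragulator complex, and other proteins of the lysosomal membrane. They were chosen by symbol, as 35 of the 24421 symbols in the deposited count table. The pump has 16 of them, Ragulator 5, membrane glycoproteins and tetraspanning proteins 6, and transporters and channels 8. RNA was sequenced from mouse C2C12 myotubes, which form when proliferating myoblasts of this established line are deprived of growth serum and fuse. The myoblasts received a lentivirus carrying a short hairpin RNA, were selected with puromycin, were switched to horse serum medium with high glucose and were collected as myotubes. In shGAA (3 libraries) the hairpin was directed at Gaa, the gene of lysosomal acid alpha-glucosidase. In shScrambled (3 libraries) it had a scrambled sequence, so both groups carried a virus and both were drug-selected. All titles also bear the word Fed, which the labels leave unexplained. Neither the number of hairpins nor the origin of replicates (new infections, new dishes or repeated extracts) is given in the labels. The p-values therefore set group differences only against the scatter among these libraries, and that scatter may be technical.

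The V-ATPase pumps protons into the lysosome. Its V1 sector on the cytosolic side hydrolyses ATP, and its V0 sector in the membrane carries the protons across. Ragulator anchors the Rag GTPases to the lysosomal surface, where they recruit the kinase mTORC1 when amino acids are plentiful. Heavily glycosylated proteins such as LAMP1 and LAMP2 line the membrane, and carriers and channels move the products of digestion and ions across it. In muscle, glycogen that enters lysosomes is broken down there by acid alpha-glucosidase, an enzyme that works at the acid pH the pump maintains.

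Levels are given as CPM, which are counts scaled to the size of each library. Gaa itself was at 47.9, 47.5 and 51.9 CPM in shGAA 1 to 3 and 106, 124 and 119 CPM in shScrambled 1 to 3, a log2 fold change of -1.25 ± 0.07 (SE, n = 3 per group, edgeR adjusted p = 1.087e-09). Total counts were between 9224038 and 10430270 per library. The library shScrambled 1 stood apart from its group. Its counts differed from those of the other shScrambled libraries with chi-square values of 6.13 and 5.54 per degree of freedom, against 1.99 to 2.63 for pairs of the other libraries. It was the lowest of its group for 21 of the 34 tested members, and shGAA 3 was the lowest of its own group for 19. Of the 14 tested myotube markers 11 were lower in shGAA and 3 did not pass, and the 15 markers measured summed to 2379 to 2606 CPM in shGAA and 3165 to 3557 in shScrambled. The largest part of that sum was Des, with 49499 counts in shGAA and 58185 in shScrambled. The 10 myoblast markers summed to 2169 to 2329 and 2639 to 2795 CPM, with 3 of 9 tested higher and 2 lower. The lower ones were Itga7, the most counted of them (35070 and 44521 counts), and Sdc4 (5305 and 10327). The other 7 tested myoblast markers had fold changes above 0 on the log2 scale. The 10 leukocyte and macrophage markers summed to at most 17.8 CPM in shGAA and 24.8 in shScrambled, nearly all of it Cd14, with Itgam, Fcgr1 and Tyrobp at 0 in all libraries and Ptprc at 2 counts over the 6 libraries. The 7 osteoclast markers summed to 9.50 to 13.4 and 18.7 to 21.7 CPM, nearly all of it the pump subunit gene Atp6v0d2, with Ocstamp, Dcstamp and Calcr at 0. The 7 adipocyte markers summed to at most 15.7 CPM, with Plin1, Cidec and Lep at 0, and the 6 endothelial ones to at most 5.44 in any library, with Tie1 at 0. The lower myotube markers accompanied every difference given here, and their part in it was not tested. In such bulk RNA, fewer cells of a type and less RNA per cell cannot be told apart.

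Among the lysosomal membrane genes, 5 of 8 transporter and channel genes (Ctns, Slc17a5, Mcoln1, Clcn7 and Ostm1) and 6 of 15 tested pump genes were higher with the Gaa hairpin, as were 18.5% of all genes tested. Lamp1 and the pump genes Atp6v0a2 and Atp6ap1 were lower. Of 34 tested members, 13 were higher in shGAA (adjusted p under 0.05), 3 were lower and 18 did not pass. The changes were mostly small, between -0.40 and 0.71 on the log2 scale. The median fold change of the members was 0.10 on that scale, against 0.005 over all 11801 genes tested. The median size of change, without its sign, was 0.18 among the members and 0.18 among all genes. Over all genes tested, 38.2% were called (18.5% higher, 19.7% lower), against 47.1% of the members. Most members are well expressed, and among the 4806 genes at 50 CPM or more, a level chosen after the values were seen, 46.9% were called (20.2% higher, 26.7% lower). Of the 25 members at that level, 9 were higher and 3 lower, or 48% in all. The share of members called in either direction was therefore near that of genes of like level, and higher calls outnumbered lower ones among the members but not among all genes. With library size as the only scaling the members split 16 and 2, and all genes 2809 and 1872.

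**Figure D1:**
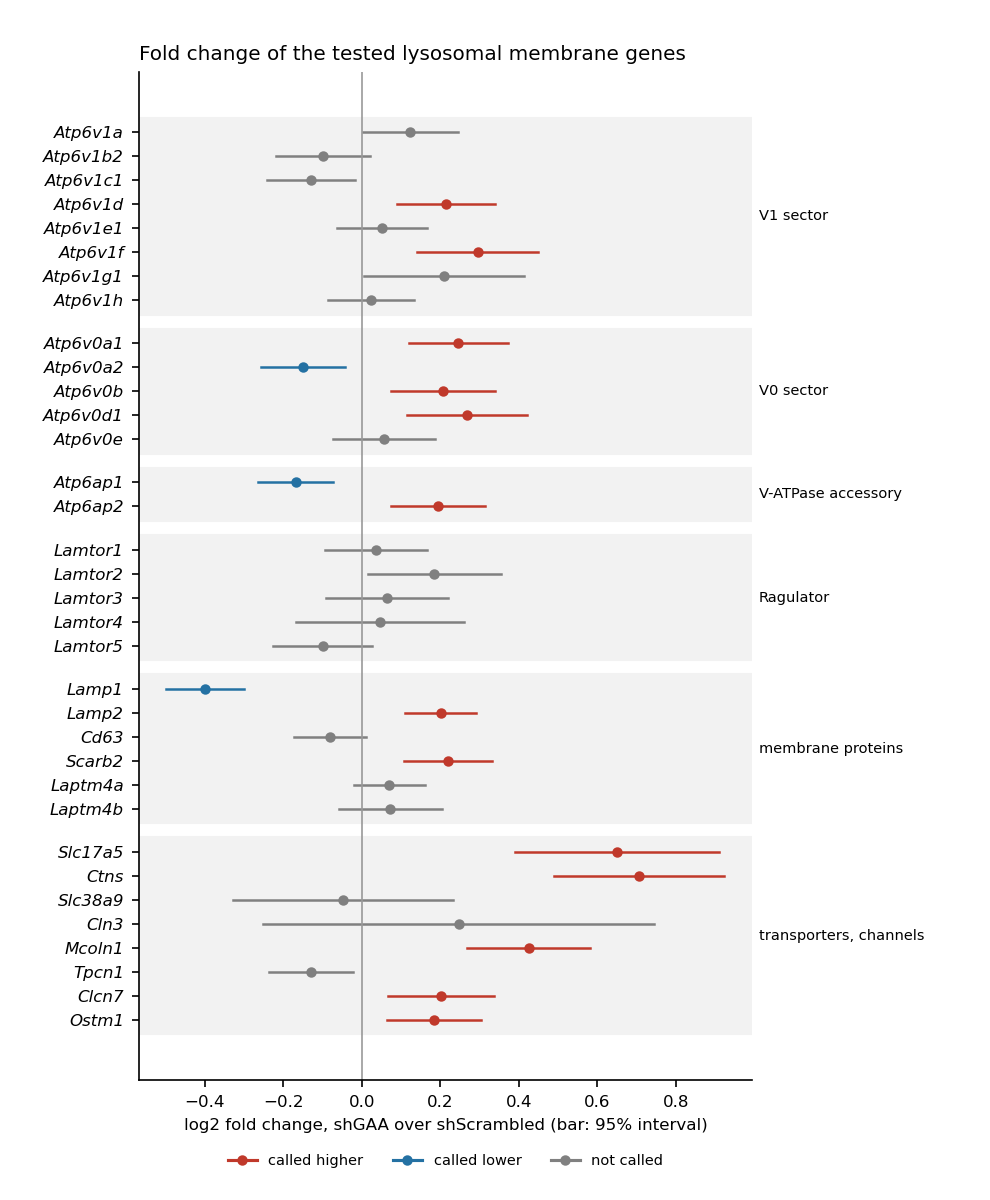
Log2 fold change of shGAA over shScrambled (x axis) for the 34 tested genes, grouped by role, with the 95% confidence interval of each as a bar. Red points are the 13 genes called higher, blue points the 3 called lower and grey points the 18 not called. Ctns and Slc17a5 lie farthest right and Lamp1 farthest left.

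The values of each library show how even the groups were. For 23 of the 34 tested members the groups did not overlap, 17 of them higher in shGAA and 6 lower, or 67.6% in all. Of all tested genes 49.6% had no overlap, 24.7% higher and 24.9% lower. At 50 CPM or more the shares were 72% of the members and 57.7% of all genes. Without shScrambled 1 the members split 13 higher and 5 lower, the additional lower ones being the pump subunit gene Atp6v1c1 and the channel gene Tpcn1.

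**Figure D2:**
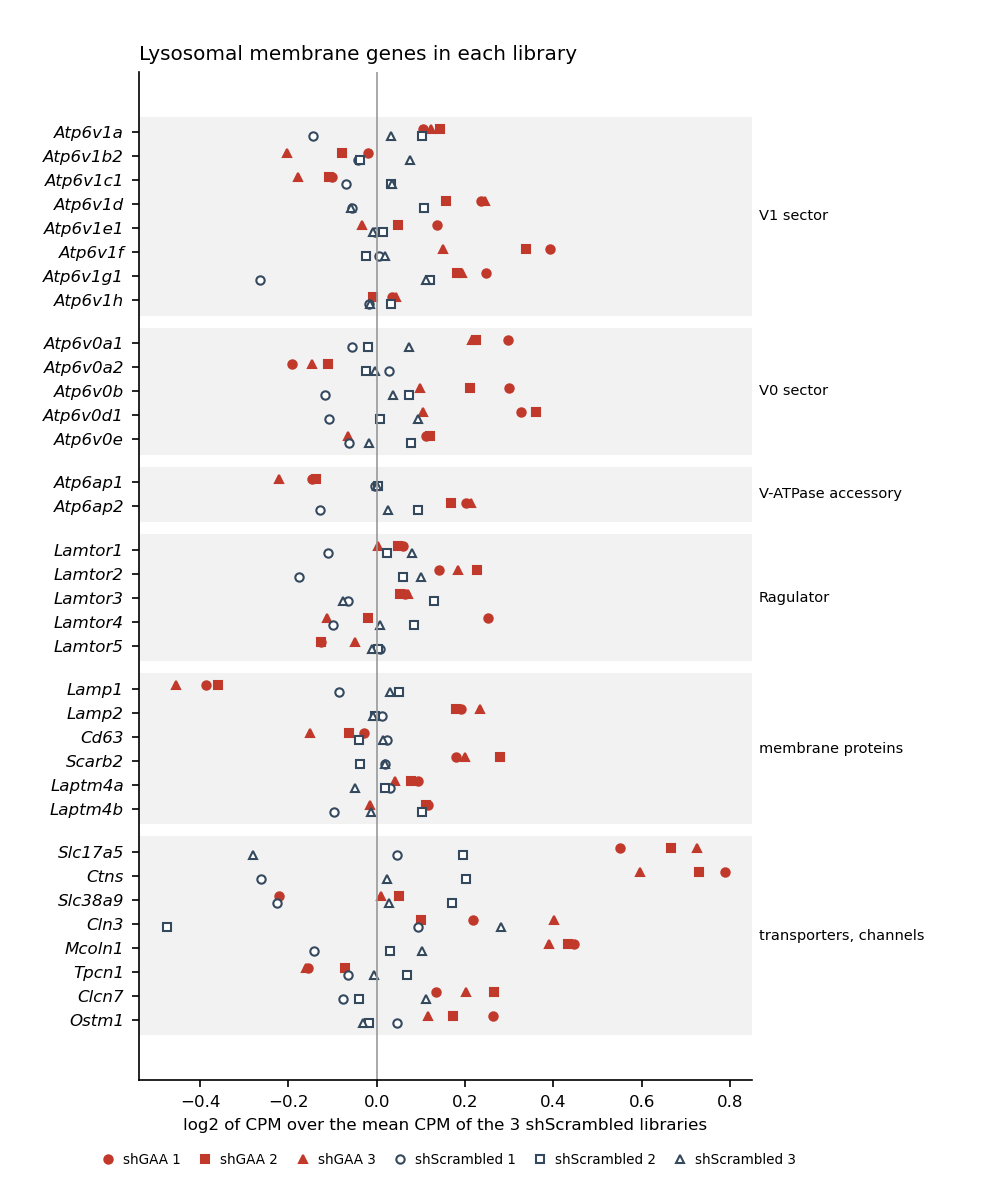
Each point is the CPM of a gene in 1 library, as the log2 of its ratio to the mean of the 3 shScrambled libraries (x axis), with genes grouped by role. Filled red symbols are shGAA and open dark symbols shScrambled. All red points of Ctns, Slc17a5 and Mcoln1 lie right of all dark points, and those of Lamp1 lie left of them.

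The promoters of called members are shown because genes of the lysosome often carry the motif known as CLEAR, an E-box that factors of the TFEB family bind. RefSeq windows on GRCm38.p6 (250 bases before to 50 after a start) were found for 27 of the 35 members. The E-box searched was CACGTG and the CLEAR core was the same E-box with T before and A after it. Each reads the same on both strands, and every core contains an E-box. An E-box was present in the windows of 10 of 27 members (37.0%), against 11.9% of the 9016 tested genes with a window, and the core in 6 of 27 (22.2%), against 2.31%. Those shares depend on which genes were chosen as members and not on the groups compared. The E-box was found in 4 of 13 members called higher, in 5 of 11 not called, and in 1 of 2 called lower, Lamp1. The core was found in 3 of 13 called higher, in 3 of 11 not called and in 0 of 2 called lower. Stretches before the start are given for the called members with an E-box there, with E-boxes and the core in capitals and each sequence 5′ to 3′ on the strand of the gene. The mucolipin gene Mcoln1 (chr8:3500398-3500518, plus strand) has both an E-box and a core, which begins 46 bases before the start. The pump gene Atp6v0b (chr4:117887330-117887415, minus strand) has a pair of E-boxes, the chloride exchanger gene Clcn7 (chr17:25133326-25133390, plus strand) has 1 before the start and a core just after it, and Lamp1 (chr8:13159050-13159160, plus strand) has 4 within 61 bases of the start.
Mcoln1: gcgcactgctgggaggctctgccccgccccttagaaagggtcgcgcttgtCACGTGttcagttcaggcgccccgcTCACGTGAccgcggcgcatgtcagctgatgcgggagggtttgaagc
Atp6v0b: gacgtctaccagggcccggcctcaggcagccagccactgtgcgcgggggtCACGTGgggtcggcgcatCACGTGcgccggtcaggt
Clcn7: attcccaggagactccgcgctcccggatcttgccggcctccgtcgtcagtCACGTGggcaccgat
Lamp1: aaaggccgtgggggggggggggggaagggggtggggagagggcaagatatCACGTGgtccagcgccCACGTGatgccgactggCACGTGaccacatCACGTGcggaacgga
A core also lies across or next to the starts of Atp6v0d1, called higher, and Atp6v0e, not called. In Atp6v1a and Cln3, both not called, a core lies 132 and 122 bases before a start. Cln3 and Clcn7 each have another window, at a different start, that holds neither an E-box nor a core. A match of letters is a description of the window and does not show that a factor binds there.

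In the V1 sector, which holds the catalytic head and the stalks of the pump, 2 of 8 genes were higher and 6 did not pass. Over all genes tested, 18.5% were higher and 19.7% lower. Atp6v1f, a small subunit of the central stalk, was at 58.6, 56.4 and 49.5 CPM in shGAA 1 to 3 and at 44.8, 43.9 and 45.3 CPM in shScrambled 1 to 3. All shGAA libraries lay above all shScrambled ones, with a log2 fold change of 0.30 ± 0.07 (SE, n = 3 per group, edgeR adjusted p = 0.00424). The gene shares 11.2% of its 50-base stretches with the processed pseudogene AC169506.3. Atp6v1d, the rotor of the stalk, was at 108, 102 and 109 CPM against 88.15, 98.7 and 88.1 CPM, without overlap, and rose by 0.21 ± 0.06 (edgeR adjusted p = 0.00884). The catalytic subunit gene Atp6v1a was at 226, 232 and 229 CPM in shGAA and 190, 226 and 215 CPM in shScrambled. Its difference of 0.12 had a 95% interval of 0.00 to 0.25 and did not pass (edgeR adjusted p = 0.0994), and leaving out 1 control library moved it either way, to 0.056 without shScrambled 1 (adjusted p = 0.389) and to 0.178 without shScrambled 2 (adjusted p = 0.0291). Atp6v1b2, the nucleotide-binding partner of the A subunit, stood at -0.10 (-0.22 to 0.02) and Atp6v1c1, a subunit that joins the head to the membrane sector, at -0.13 (-0.24 to -0.02, adjusted p = 0.0659). The peripheral stalk genes Atp6v1e1 and Atp6v1g1 stood at 0.05 (-0.06 to 0.17) and 0.21 (0.01 to 0.41), and the regulatory subunit gene Atp6v1h at 0.02 (-0.08 to 0.13). Atp6v1g1 had an uneven control group, with 152 CPM in shScrambled 1 against 199 and 197.5 CPM in the others. It missed the threshold with edgeR (adjusted p = 0.0987) and passed narrowly with DESeq2 (adjusted p = 0.0460) and limma (adjusted p = 0.0496). It passed in 6 of the 17 alternatives, and without shScrambled 1 its fold change was 0.092 (adjusted p = 0.140). The gene shares 19.2% of its stretches with the pseudogene Gm13453.

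In the V0 sector, 3 of 5 tested genes were higher and 1 was lower, where 18.5% and 19.7% of all genes tested were. Atp6v0d1, which links the rotor to the proteolipid ring, was at 95.01, 97.3 and 81.4 CPM in shGAA 1 to 3 and 70.3, 76.1 and 80.8 CPM in shScrambled 1 to 3. Its log2 fold change was 0.27 ± 0.07 (edgeR adjusted p = 0.00810). The margin between the groups was thin, since shGAA 3 lay just above shScrambled 3. Atp6v0b, a proteolipid of the ring, was at 169, 158.5 and 147 CPM against 126, 144 and 140 CPM and rose by 0.21 ± 0.06 (edgeR adjusted p = 0.0158). The antisense gene Gm12841 covers 11.8% of its exonic bases. Atp6v0e, a small membrane subunit, stood at 0.06 (95% interval -0.07 to 0.19). The call of Atp6v0b ended without shGAA 1 or shGAA 2 (adjusted p = 0.101 and 0.0544) and that of Atp6v0d1 without shGAA 2 (adjusted p = 0.0537). Atp6v0c, the gene of the main ring proteolipid, had 1 count in shGAA 3 and 0 in the other libraries and could not be tested. It shares 10.8% of its 50-base stretches with other annotated genes, nearly all with the pseudogene Atp6v0c-ps2, which had 0 counts. Whether reads of Atp6v0c were left out in counting was not tested, so the near lack of counts does not show that the gene was silent.

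The a subunits, which form the proton path and target the pump to different membranes, moved apart. Atp6v0a1 was at 78.15, 74.4 and 73.9 CPM in shGAA 1 to 3 and 61.2, 62.7 and 66.9 CPM in shScrambled 1 to 3, a rise of 0.25 ± 0.06 (edgeR adjusted p = 0.00385). Atp6v0a2, more often placed on Golgi and endosomes, was at 129, 136.5 and 133 CPM against 150, 145 and 147 CPM and fell by 0.15 ± 0.05 (edgeR adjusted p = 0.0279). In both genes the groups did not overlap, in opposite directions. The call of Atp6v0a2 was the least steady of the members, since it ended with DESeq2 (adjusted p = 0.0635), with scaling by library size alone (adjusted p = 0.122) and when shGAA 1, shGAA 3 or shScrambled 3 was left out (adjusted p = 0.114, 0.0660 and 0.0651). Within a library, the log2 ratio of Atp6v0a1 to Atp6v0a2 counts was -0.72, -0.88 and -0.85 in shGAA and -1.30, -1.21 and -1.13 in shScrambled. The difference of 0.40 had a p of 0.10 in the exact two-sided permutation test, the smallest that 3 against 3 libraries allow. The antisense gene 4930404A12Rik covers 9.86% of the exonic bases of Atp6v0a2.

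Other isoforms of the pump also differed between the groups. Of 10 isoform genes outside the members, 4 had enough counts to be tested. All 4 passed, where 38.2% of all genes tested did. Tcirg1, the a3 subunit gene typical of osteoclasts and secretory lysosomes, was at 89.7, 94 and 84.96 CPM in shGAA and 63.5, 67.9 and 65.75 CPM in shScrambled, a rise of 0.45 ± 0.06 (edgeR adjusted p = 1.88e-05). Atp6v0d2, the d2 isoform, went the opposite way to Atp6v0d1, at 9.19, 12.4 and 12.97 CPM against 18.4, 20.8 and 21.4 CPM (-0.81 ± 0.13, edgeR adjusted p = 0.000115). At low levels, Atp6v0e2 and Atp6v1g2 were higher by 0.48 and 1.00, at 12.15 against 8.71 and 2.60 against 1.30 CPM.

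The accessory subunits of the pump moved in opposite directions. Atp6ap1, which takes part in assembly of the V0 sector, was at 270, 272 and 257 CPM in shGAA 1 to 3 and 298.5, 299.8 and 299.2 CPM in shScrambled 1 to 3. It fell by 0.17 ± 0.05 (edgeR adjusted p = 0.00710), and the shScrambled libraries were close to equal. Atp6ap2, also known as the prorenin receptor, was at 191, 187 and 193 CPM against 152, 177 and 169 CPM and rose by 0.20 ± 0.06 (edgeR adjusted p = 0.0119). Neither gene overlapped between the groups.

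As sums over their genes, the pump sectors did not separate the groups. The V1 genes summed to 1191, 1159 and 1133 CPM in shGAA 1 to 3 and to 1038, 1146 and 1133 CPM in shScrambled 1 to 3. The V0 genes summed to 590, 586 and 540 CPM against 513, 544 and 544 CPM. Atp6v0c added only 1 count, in shGAA 3, so the V0 sum and the ratio below hardly include the main ring proteolipid. In both sectors the groups overlapped, and shScrambled 1 was the lowest library. The log2 ratio of V1 to V0 counts was 1.02 ± 0.04 (SD, n = 3) in shGAA and 1.05 ± 0.03 (SD, n = 3) in shScrambled, a difference of -0.03. Leaving out 1 library gave differences of -0.009 (without shGAA 2) to -0.051 (without shGAA 3).

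**Figure D3:**
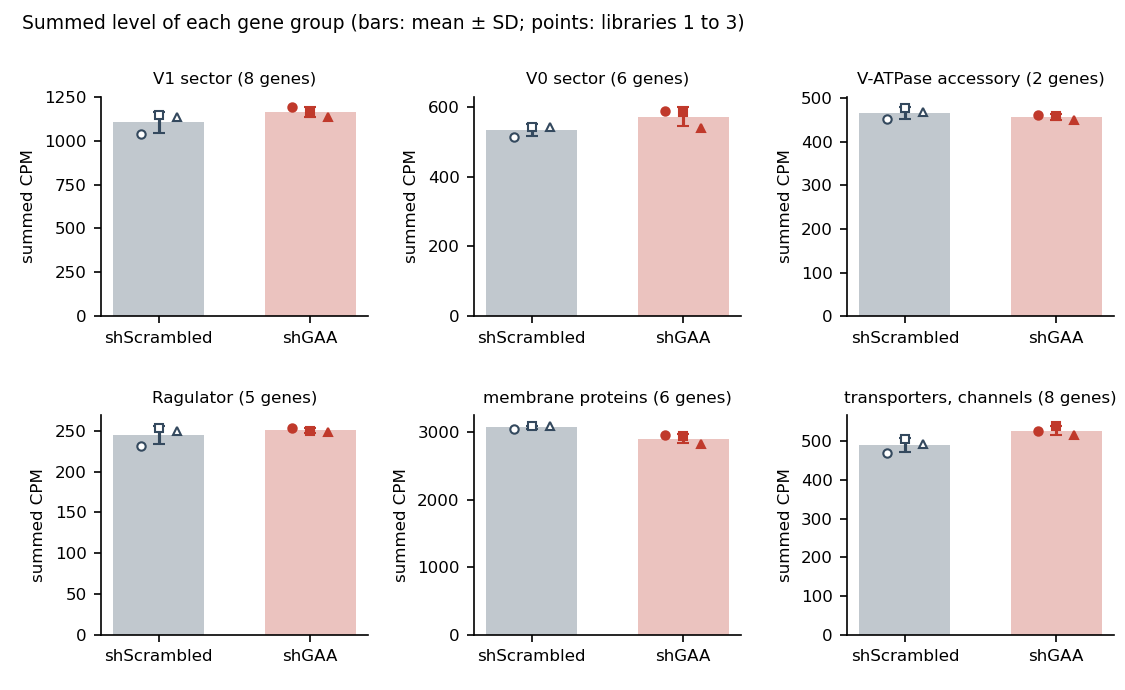
Summed CPM of each gene group (y axis, from 0) in shScrambled and shGAA, with bars for the mean, error bars for the SD and points for libraries 1 to 3. Atp6v0c added only 1 count to the V0 sum, so that sum hardly includes the main ring proteolipid. Sums of the membrane proteins are lower and sums of the transporters and channels higher in all shGAA libraries, and the other groups overlap.

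Of the 5 Ragulator genes, 0 passed the edgeR test, 0 passed with DESeq2 and 0 with limma. Over all genes tested, 38.2% passed with edgeR. At an unadjusted p under 0.05 edgeR gave 1 Ragulator gene, Lamtor2. Lamtor1, which anchors the complex through its lipid tail, was at 75.9, 75.3 and 73.0 CPM in shGAA 1 to 3 and 67.5, 74.1 and 77.1 CPM in shScrambled 1 to 3, with a log2 fold change of 0.04 (95% interval -0.09 to 0.17). Lamtor2 and Lamtor3 form a roadblock dimer within the complex and stood at 0.18 (0.02 to 0.35, edgeR adjusted p = 0.0791) and 0.06 (-0.09 to 0.22). Lamtor4 and Lamtor5 form the other dimer and stood at 0.05 (-0.17 to 0.26) and -0.10 (-0.22 to 0.03). Lamtor2 and Lamtor5 did not overlap between the groups, in opposite directions. They are 40% of the Ragulator genes, where 49.6% of all tested genes had no overlap. Lamtor5 was at 59.05, 59 and 62.2 CPM in shGAA and 64.7, 64.5 and 63.9 CPM in shScrambled. Lamtor2 was higher, at 41.7, 44.3 and 43.0 CPM against 33.5, 39.4 and 40.6 CPM. It passed with scaling by library size alone (adjusted p = 0.0310) and with an offset for gene length and GC content (adjusted p = 0.00836), and without shScrambled 1 its fold change was 0.103 (adjusted p = 0.307). The intervals leave room for changes of up to 0.35 in Lamtor2 and 0.26 in the others, so these values do not show that the genes were equal in the groups. The complex summed to 254, 250 and 248 CPM in shGAA and 232, 253.6 and 249.5 CPM in shScrambled. Lamtor1 overlaps Lrrc51 on the opposite strand over 18.7% of its exonic bases, and Lamtor5 shares 14.5% of its stretches with the pseudogene Gm15190.

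The lysosome-associated membrane glycoproteins went in opposite directions. Lamp1 (chromosome 8, 13159161 to 13175338, plus strand of GRCm38) was at 699, 713 and 667.5 CPM in shGAA 1 to 3 and 862, 946 and 934 CPM in shScrambled 1 to 3. Its log2 fold change of -0.40 ± 0.05 was the lowest of the members (edgeR adjusted p = 4.43e-06). Lamp2 (chromosome X, 38401357 to 38456454, minus strand) makes an isoform that serves chaperone-mediated autophagy, and its loss causes Danon disease, in which glycogen builds up in muscle. It was at 414.5, 411 and 427 CPM against 366, 362 and 361 CPM, a rise of 0.20 ± 0.04 (edgeR adjusted p = 0.00129). With an offset for gene length and GC content the rise of Lamp2 was 0.124 (adjusted p = 0.0214). Both genes separated the groups, Lamp1 downward and Lamp2 upward. Within a library the log2 ratio of Lamp1 to Lamp2 counts was 0.76, 0.80 and 0.65 in shGAA and 1.24, 1.39 and 1.37 in shScrambled. There were thus 1.66 Lamp1 counts for each Lamp2 count in shGAA and 2.52 in shScrambled, a ratio that needs no scaling between libraries. The exact two-sided permutation p of this difference was 0.10, the smallest possible. Grtp1, on the opposite strand over 9.31% of the exonic bases of Lamp1, summed to 136 counts in shGAA and to 113 in shScrambled.

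Of the other 4 membrane protein genes, 1 was higher and 3 did not pass, where 18.5% of all genes tested were higher. Scarb2, which carries glucocerebrosidase to the lysosome, was at 114, 122 and 115 CPM in shGAA and 102, 97.8 and 102 CPM in shScrambled, a rise of 0.22 ± 0.05 (edgeR adjusted p = 0.00373). The tetraspanin gene Cd63 was the most abundant member, at 1003, 980 and 922 CPM against 1041, 996 and 1034 CPM. Its groups overlapped and its fold change was -0.08 (95% interval -0.17 to 0.01). The transmembrane protein genes Laptm4a and Laptm4b stood at 0.07 (-0.02 to 0.16) and 0.07 (-0.06 to 0.20), and only the former did not overlap between the groups. Their log2 count ratio was 2.55 ± 0.05 (SD, n = 3) in shGAA and 2.55 ± 0.11 (SD, n = 3) in shScrambled, with an exact permutation p of 0.90. Cd63, Lamp1, Laptm4a and Lamp2 held 47.2% of the CPM of the 35 genes. The 6 membrane protein genes summed to 2950, 2937 and 2820 CPM in shGAA and 3048, 3089 and 3083 CPM in shScrambled. Without Lamp1, a choice made after its values were seen, the other 5 summed to 2250, 2225 and 2152 CPM against 2186, 2143 and 2149 CPM, and the groups overlapped.

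**Figure D4:**
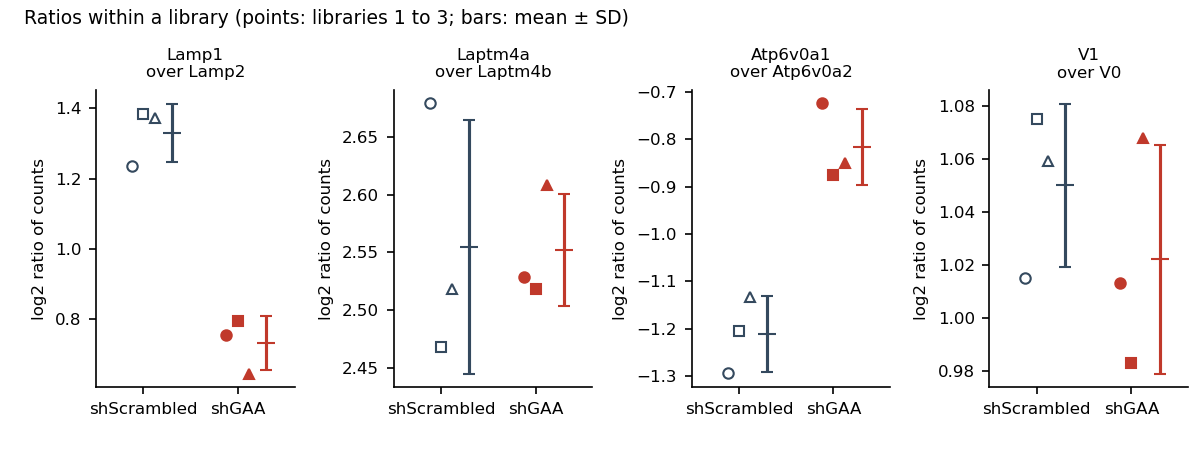
Log2 ratio of counts within each library (y axis, scaled separately in each panel) for 3 pairs of related genes and for the summed V1 over V0 genes, with points for libraries 1 to 3 and bars for mean ± SD. The Lamp1 to Lamp2 ratio is lower and the Atp6v0a1 to Atp6v0a2 ratio higher in all shGAA libraries, and the other pair of ratios overlap between the groups.

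Transporters and channels held the largest rises, with 5 of 8 higher and 3 that did not pass, where 18.5% of all genes tested were higher. Ctns (chromosome 11, 73183596 to 73199042, minus strand) encodes the cystine exporter that is mutated in cystinosis. It was at 41.9, 40.2 and 36.7 CPM in shGAA 1 to 3 and 20.2, 27.9 and 24.7 CPM in shScrambled 1 to 3. The groups were well apart, with a log2 fold change of 0.71 ± 0.10, a 1.63-fold rise (edgeR adjusted p = 5.15e-05). Slc17a5 (chromosome 9, 78536488 to 78588041, minus strand) encodes sialin, which exports sialic acid freed from glycoproteins. It was at 18.8, 20.4 and 21.2 CPM against 13.25, 14.7 and 10.6 CPM and rose 1.57-fold, by 0.65 ± 0.12 on the log2 scale (edgeR adjusted p = 0.000513). Leaving out 1 library at a time gave 0.59 to 0.82 for Ctns and 0.53 to 0.76 for Slc17a5.

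Mcoln1 (chromosome 8, 3500457 to 3515232, plus strand) encodes a calcium channel of the lysosome that is lost in mucolipidosis type IV. It was at 51.8, 51.3 and 49.8 CPM in shGAA and 34.4, 38.8 and 40.8 CPM in shScrambled, and rose by 0.42 ± 0.07 (edgeR adjusted p = 0.000257). Clcn7, a chloride-proton exchanger, and Ostm1, its obligate partner subunit, rose by a like amount. Clcn7 was at 74.2, 81.3 and 77.8 CPM against 64.1, 65.7 and 73.0 CPM, a rise of 0.20 ± 0.06 (edgeR adjusted p = 0.0200). Ostm1 was at 110, 104 and 99.5 CPM against 94.8, 90.85 and 89.98 CPM, a rise of 0.18 ± 0.06 (edgeR adjusted p = 0.0162). Both were close to the threshold. The call of Clcn7 ended with DESeq2 (adjusted p = 0.0559) and when shGAA 2, shGAA 3 or shScrambled 2 was left out (adjusted p = 0.0992, 0.0532 and 0.0646), and that of Ostm1 without shGAA 1 or shScrambled 3 (adjusted p = 0.0972 and 0.0625).

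The other members of this group did not pass. Tpcn1, a sodium and calcium channel, was at 214, 226 and 213 CPM in shGAA and 228, 249.5 and 237 CPM in shScrambled, without overlap and just short of the threshold (-0.13 ± 0.05, edgeR adjusted p = 0.0535). It passed without shScrambled 1 (adjusted p = 0.00828). Slc38a9, the arginine sensor that signals to Ragulator, stood at -0.05 (95% interval -0.33 to 0.23). Cln3, mutated in juvenile Batten disease, had 20 to 42 counts per library and stood at 0.25 (-0.25 to 0.75), an interval that spans 0 widely on both sides. The 8 genes summed to 525, 540 and 515 CPM in shGAA and 469, 504 and 493 CPM in shScrambled, without overlap.

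Levels per kilobase divide CPM by the union of all annotated exons, so they compare genes only roughly. A union longer than the expressed transcript lowers the value. The unions of Atp6v1h and Slc38a9 are long, at 9746 and 16704 bases. On this scale the genes of each complex spanned a wide range. In shScrambled the V1 genes lay between 11.7 CPM per kilobase for Atp6v1h and 161 for Atp6v1g1, and the V0 genes between 9.70 for Atp6v0a1 and 66.75 for Atp6v0b. Of the a subunits, Atp6v0a2 stood at 21.9, above Atp6v0a1. Among the membrane proteins, Lamp1 (342), Laptm4a (324) and Cd63 (278) were the highest of all members, and Lamp2 stood at 38.0 over a long union of isoforms. With the Gaa hairpin Lamp1 was at 259 CPM per kilobase, below Laptm4a at 340 and close to Cd63 at 263. Slc38a9 and Cln3 were the lowest, at 0.777 and 0.517 CPM per kilobase in shScrambled. The sialin gene rose from 3.54 to 5.55 and the cystine exporter gene from 7.16 to 11.7. The transporters with the largest rises were therefore low in level next to the membrane glycoproteins.

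**Figure D5:**
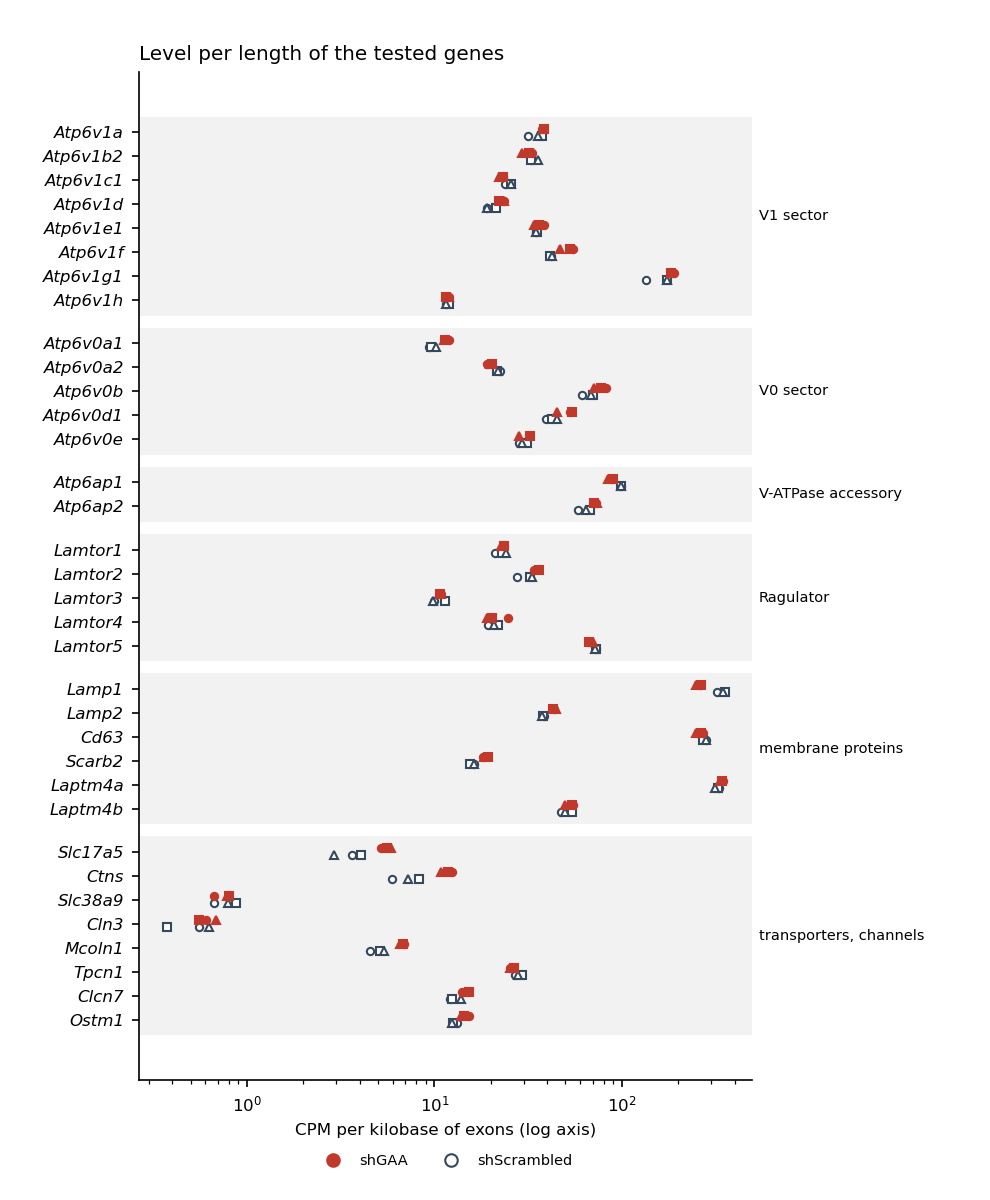
Level of each tested gene as CPM per kilobase of exons (x axis, log scale), with 1 point per library, filled red for shGAA and open dark for shScrambled. Lamp1, Laptm4a and Cd63 lie farthest right, and Slc38a9 and Cln3 lie below 1 CPM per kilobase.

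A wider list of 83 genes holds other pump isoforms, genes that assemble or regulate the pump or position lysosomes, and other genes assigned to the lysosomal membrane. Not all of them encode proteins of that membrane. On this list 68 genes had enough counts. Of these, 22 were higher in shGAA, 9 were lower and 37 did not pass, with a median of 0.12 on the log2 scale. The share called was 45.6%, against 38.2% of all genes tested (18.5% higher, 19.7% lower) and 46.9% of those at 50 CPM or more. Many genes of this list lie below 50 CPM, so the last share is not one of genes of like level. Genes that assemble or regulate the pump had 3 rises among 10 tested, and 7 did not pass. Genes of BORC and its partners, which move lysosomes along microtubules, had 5 rises among 15, and 10 did not pass, with Snapin, a BORC subunit, at 0.25 ± 0.06 (edgeR adjusted p = 0.00177). Among further transporters and channels 7 of 21 rose and 4 fell. Slc38a7, which exports glutamine and asparagine from lysosomes, rose by 0.78 ± 0.07, from 40.5 to 69.4 CPM (edgeR adjusted p = 1.32e-07), and Mfsd1 by 0.39 ± 0.06. Tmem63a, a mechanosensitive channel gene, fell by 0.62 ± 0.06 (edgeR adjusted p = 6.98e-07) and Npc1, the cholesterol exporter, by 0.47 ± 0.06. The remaining membrane proteins split 4 higher and 4 lower among 18. Acp2, an acid phosphatase, and Sidt2 rose by 0.49 ± 0.06 and 0.29 ± 0.06. Cd164, a sialomucin gene at 600 CPM in shScrambled, fell by 0.38 ± 0.05, Litaf by 0.34 ± 0.05 and the SNARE gene Vti1b by 0.35 ± 0.06.

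Transcripts of the factors that bind the CLEAR motif did not pass. Tfeb was at 10.7 CPM in shGAA and 11.0 in shScrambled (-0.04 ± 0.13), Tfe3 at 70.2 and 78.8 CPM (-0.17 ± 0.07, edgeR adjusted p = 0.0674) and Mitf at 10.2 and 11.4 CPM (-0.16 ± 0.14). The test of Tfe3 turned on single libraries and settings, with -0.224 without shGAA 2 (adjusted p = 0.0416) and -0.092 without shGAA 3 (adjusted p = 0.336). It also passed as lower with the offset for length and GC content (adjusted p = 0.0241), with no filter on low counts (adjusted p = 0.0337) and without shScrambled 1 (adjusted p = 0.0236), and not with DESeq2 or limma. The activity of these factors depends largely on their location in the cell, which RNA counts do not measure and which was not tested.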

How the data were processed

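The table the authors deposited holds unnormalized read counts, genes by symbol, in 6 library columns. The submitters' processing notes name mm10, HISAT2 2.1.0, Subread, FastQC and edgeR. Annotation, strand setting and treatment of multiply matching reads were not given in the sources used here. Of 24421 symbols, 8068 had no count. Genes were kept by filterByExpr (11801 genes), scaled by TMM (factors 0.980 to 1.02) and tested on the whole table with edgeR 4.0.16 (quasi-likelihood F-test, robust, group only, R 4.3.3). P-values were adjusted by Benjamini-Hochberg across the full tested table and called at 0.05. CPM uses TMM-scaled library sizes. Intervals are 95%, not adjusted for multiple testing. Ratios used a pseudocount of 0.5 counts. Gene lengths, antisense overlaps and shared 50-base stretches come from GENCODE M21 (GRCm38, the sequence of mm10), and promoters from RefSeq. The fitting code was also checked on simulated counts, built from the means and dispersions of these data. limma 3.58.1 and DESeq2 1.42.0 served as alternatives. The named genes are all members, Gaa, the 12 called genes of a wider list with the smallest adjusted p, Npc1, Tcirg1, Atp6v0d2, Tfeb, Tfe3 and Mitf. Atp6v0e2 and Atp6v1g2 fell outside that rule and were named after their values were seen. The members and lists were chosen with earlier results of these data known.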

Additional observations from a re-analysis of the deposited data

How the results depend on the processing

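Of the 16 called members, 10 kept their call and direction in all 17 alternatives, 6 lost the call in at least 1, and 0 changed sign. Of the 18 others, 6 passed in at least 1 alternative. With the length and GC offset, the 13 higher members became 16 and the 3 lower ones 5. When 1 library was left out they were 10 to 14 and 2 to 5. At an adjusted p under 0.01, 1367 of all genes and 11 genes of the wider list were higher. Reversals concerned values near 0 that were not called. With the length and GC offset, Atp6v1h was at -0.042 (-0.041 together with the replicate block) and Lamtor5 at 0.000. With library size as the only scaling, Slc38a9 was at 0.001 and Tfeb at 0.011. Leaving out 1 library gave -0.017 to 0.078 for Lamtor1, -0.067 to 0.125 for Lamtor4 and -0.150 to 0.046 for Slc38a9, -0.071 to 0.011 for Tfeb (0.005 without shGAA 3), and a change of -0.047 to 0.058 in the Laptm4a to Laptm4b ratio. The cause was not tested. Same-numbered libraries did not deviate together (r = -0.039, 0.056 and -0.011), and not every library correlated best with its own number. With the replicate block, 13 members were higher and 2 lower, and 2037 and 2197 of all genes; the Atp6v0a2 call ended (adjusted p = 0.0578). Within replicate numbers the Lamp1 to Lamp2 ratio differed by -0.599 and the Atp6v0a1 to Atp6v0a2 ratio by 0.396 (exact sign-flip p = 0.25, the smallest possible). Precision was lowest for Cln3, at 20 to 42 counts per library, with an SE of 0.24.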
